A study of Mus musculus with 12 samples.

Results

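The genes described here are 10 genes tied to B-1 cells, chosen by name: the transcription factor genes Bhlhe41, Bhlhe40, Zbtb32 and Arid3a, the surface protein genes Cd5, Spn, Ctla4 and Il5ra, and Ptpn22 and Plscr1. All 10 were among the 27179 genes counted, and all 10 were among the 13592 with enough reads to be tested. RNA-seq reads were counted in mature B cells from the bone marrow of C57BL/6 mice, sorted for high B220, for IgM and for absence of CD93. Neither CD5 nor CD43 was among the sort markers. How far the gate for high B220 kept or removed B-1 cells was not tested. The 4 groups of 3 libraries were old wild-type mice of 98, 99 and 100 weeks, young wild-type mice of 9, 10 and 11 weeks, apoptosis-resistant mice (Bak-/- BaxD/D, 10 weeks) and apoptosis-sensitive mice (Bak-/- Baxfl/fl, 10 weeks). Both mutant groups lacked Bak, the wild-type groups lacked neither gene, and the driver of the Bax deletion is not given in the sources used here. BAK and BAX are the effectors that open the outer mitochondrial membrane in apoptosis.

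B-1 cells are B lymphocytes that arise largely in fetal and neonatal life, renew themselves in the adult and secrete much of the natural IgM. In bone marrow they are a small population beside recirculating follicular B-2 cells. BHLHE41, with its paralog BHLHE40, is needed in mice for B-1a cell development and self-renewal. CD5, a scavenger-receptor family protein that restrains signalling by the B cell receptor, marks the B-1a subset, and CD43, the sialomucin encoded by Spn, is found on most B-1 but few resting B-2 cells.

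Total counts ran from 13474162 to 23539764 per library. Levels are in CPM, which scale the reads of a gene by library size, here with the trimmed-mean (TMM) factor, and a gene is said to have risen or fallen where its adjusted p was under 0.05 (edgeR's quasi-likelihood test, Benjamini-Hochberg adjustment over the 13592 genes). Same-numbered libraries of the old and young groups shared a collection date, as did those of the apoptosis-resistant and apoptosis-sensitive groups. Bax had 4.97 to 8.36 CPM in apoptosis-resistant cells, against 55.7 to 100 CPM in apoptosis-sensitive cells. Bak1 had 6.17 to 14.4 CPM over both mutant groups, against 24.7 to 47.9 CPM over both wild-type groups. Of the genes that define the B lineage, the B cell receptor subunit gene Cd79a had 810 to 2031 CPM, Ms4a1 (CD20) 636 to 1966 CPM and the transcription factor gene Pax5 170 to 331 CPM over the 12 libraries. With age these 3 had log2 fold changes of -0.28 ± 0.28, -0.24 ± 0.35 and -0.24 ± 0.22 (SE, adjusted p = 0.871, 0.933 and 0.832), and the old library was the lower in all 3 pairs of each. The old and young libraries of 24 March stood apart from the other 10, with 2007 CPM (old) and 2981 CPM (young) of the sialic acid receptor gene Siglecg against 685 to 1039 CPM, so results that rest on them are also given without them. In sorted bulk samples, a change in the number of cells of a type and a change in RNA per cell cannot be told apart.

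In cells of old mice, 4 of the 10 genes rose and 0 fell relative to young mice: Zbtb32, Bhlhe41, Plscr1 and Ptpn22. Among all genes tested, 2.01% passed this comparison, 1.70% as higher and 0.309% as lower. Log2 fold changes were positive for 9 of the 10, and their median was 1.14, against -0.04 over all genes tested. The 10 genes were chosen with earlier results of these data known, so these comparisons with all genes are descriptions. The genes most used to mark B-1 cells by surface protein did not pass in this fit. Cd5 had a log2 fold change of 0.46 ± 0.38 (SE, adjusted p = 0.808) and Spn one of 1.08 ± 0.38 (adjusted p = 0.243). With collection date as a block in the edgeR fit, Spn passed (1.05 ± 0.23, adjusted p = 0.0254) and Cd5 did not (0.40 ± 0.37, adjusted p = 0.506). When Bax was deleted in Bak-deficient cells, 0 of the 10 passed, where 0.0441% of all genes tested did.

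Promoters of the genes that rose with age are shown because these genes changed in the same direction, and 4 motifs were searched in them. RefSeq (GRCm38.p6) gave 10 promoter windows, each from 250 bases before to 50 after a start site, for 8 of the 10 genes. Bhlhe40 and Arid3a were the genes without one. The motifs were the E-box CACGTG that BHLHE40 and BHLHE41 bind, the STAT motif TTCNNNGAA, the AP-1 motif TGANTCA and the interferon-stimulated response element, each read on both strands. The first 3 read the same on either strand. Of the 4 genes that rose, Bhlhe41, Ptpn22 and Plscr1 had a window with a match, printed 5′ to 3′ in the gene's direction with the matched bases in capitals.
Bhlhe41 (chr6:145865371-145865670, minus strand): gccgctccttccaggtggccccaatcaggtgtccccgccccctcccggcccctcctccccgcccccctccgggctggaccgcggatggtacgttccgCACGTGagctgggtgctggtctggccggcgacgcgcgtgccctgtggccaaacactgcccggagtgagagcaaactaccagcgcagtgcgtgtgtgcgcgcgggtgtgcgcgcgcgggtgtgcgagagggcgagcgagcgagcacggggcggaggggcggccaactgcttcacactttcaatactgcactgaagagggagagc
Ptpn22 (chr3:103860027-103860326, plus strand): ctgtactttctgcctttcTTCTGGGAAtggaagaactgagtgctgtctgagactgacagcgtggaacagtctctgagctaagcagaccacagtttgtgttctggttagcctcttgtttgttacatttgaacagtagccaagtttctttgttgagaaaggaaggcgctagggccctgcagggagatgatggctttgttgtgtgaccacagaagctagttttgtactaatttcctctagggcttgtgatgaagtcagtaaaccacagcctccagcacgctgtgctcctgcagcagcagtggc
Plscr1 (chr9:92249944-92250243, plus strand): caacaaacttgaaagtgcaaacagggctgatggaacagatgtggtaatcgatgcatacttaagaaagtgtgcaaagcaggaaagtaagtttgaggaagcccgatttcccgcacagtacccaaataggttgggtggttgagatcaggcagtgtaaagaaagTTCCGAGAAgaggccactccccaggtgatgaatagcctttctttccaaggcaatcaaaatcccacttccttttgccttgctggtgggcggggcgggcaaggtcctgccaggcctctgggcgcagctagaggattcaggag

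The E-box was in the Bhlhe41 window alone among the 10, 153 bases before the start site, and 7.15% of all 32851 RefSeq windows held it. The STAT motif was in 2 of the 10 windows, 232 bases before the second Ptpn22 start site and 90 bases before that of Plscr1, against 8.3% of all windows. AP-1 was in 1 of the 10, 99 bases before the start site of Il5ra, against 7.81%. The interferon-stimulated response element was in 0 of the 10, against 3.44%. Neither of the Zbtb32 windows held any of the 4 motifs. These are letter matches and say nothing of binding.

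Bhlhe41 (Entrez gene 79362, chromosome 6, 145858243 to 145865420, minus strand, GRCm38.p6) encodes the basic helix-loop-helix repressor DEC2. It had 99.2, 96.6 and 71.1 CPM in old mice (replicates 1 to 3), against 39.6, 16.2 and 20.7 CPM in young mice. All 3 old libraries lay above all 3 young ones. The gene rose by a log2 fold change of 1.81 ± 0.34 (SE, adjusted p = 0.0224). Within the shared dates the old library was higher in all 3 pairs, by 1.32, 2.57 and 1.77 on the log2 scale. Reads from the 19% of its exonic bases that overlap Gm43909 on the other strand cannot be told apart, since no strand setting is given. The call was lost without old replicate 2 (adjusted p = 0.0773), young replicate 2 (0.107) or young replicate 3 (0.0702), with log2 fold changes from 1.56 to 2.29 over all 12 libraries left out in turn.

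Bhlhe40 (Entrez gene 20893, chromosome 6, 108660629 to 108666925, plus strand) encodes the paralog DEC1, which is induced by many signals. It had 42.9, 74.0 and 48.9 CPM in old mice, against 52.2, 27.5 and 32.5 CPM in young mice. The groups overlapped, and the log2 fold change of 0.57 ± 0.41 did not pass (adjusted p = 0.751). Without the libraries of 24 March it was 1.04 (adjusted p = 0.398), without old replicate 2 it was 0.31, without young replicate 2 0.38 and without young replicate 1 0.90. Old over young was -0.28, 1.43 and 0.59 within the 3 dates, so replicate 1 went the other way. The genes of the paralog pair can be compared per length of exon. The ratio of Bhlhe41 to Bhlhe40 reads per kilobase was 1.62, 0.914 and 1.02 in old mice, against 0.531, 0.413 and 0.446 in young mice, with no overlap. On the log2 scale the ratio averaged 0.20 ± 0.44 in old and -1.12 ± 0.19 in young mice (SD, n = 3 each, two-sided exact permutation p = 0.10, the smallest that 3 against 3 can give).

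**Figure D1:**
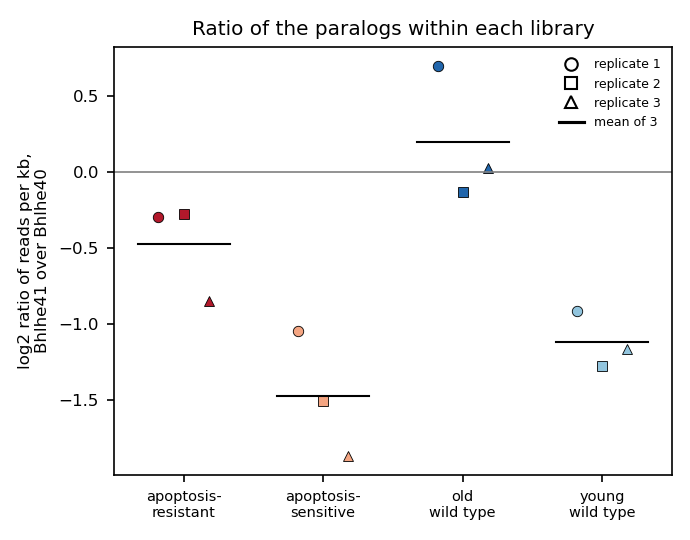
Log2 ratio of Bhlhe41 to Bhlhe40 reads per kilobase of exon (y axis) in each of the 12 libraries, with symbols for replicates 1 to 3, groups along the x axis and a bar at the mean of 3. Old libraries average 0.20 and young ones -1.12, and apoptosis-resistant libraries average -0.47 and apoptosis-sensitive ones -1.47.

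Zbtb32 (Entrez gene 58206, chromosome 7, 30589680 to 30602819, minus strand) encodes a zinc finger repressor that restrains secondary antibody responses and is expressed in mouse B-1a cells. It had 121, 47.4 and 52.3 CPM in old mice, against 19.1, 7.20 and 9.50 CPM in young mice. Every old library was above every young one, and both libraries of 24 March were the highest of their group. The log2 fold change was 2.64 ± 0.43 (adjusted p = 0.0109), the 67th smallest p of the 13592 genes. The pairs moved almost alike, by 2.66, 2.70 and 2.45 on the log2 scale. Without young replicate 2 the adjusted p was 0.059. On the scale of CPM per kilobase, Zbtb32 averaged 31.3 in old mice and 5.06 in young mice, and with Ptpn22 it had the highest mean levels of the 10 genes in old mice.

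Arid3a (Entrez gene 13496, chromosome 10, 79927043 to 79955018, plus strand), whose product Bright binds the immunoglobulin heavy chain locus and promotes B-1a over B-2 fates in mice, had 74.7, 90.7 and 88.3 CPM in old mice, against 93.7, 79.8 and 95.2 CPM in young mice. The groups overlapped. Its log2 fold change was -0.08 ± 0.15 (adjusted p = 0.955), and 0.04 without the libraries of 24 March.

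Cd5 (Entrez gene 12507, chromosome 19, 10718107 to 10739026, minus strand) was low in every library. It had 3.62, 1.79 and 3.06 CPM in old mice, from 74, 35 and 57 reads, against 1.73, 2.06 and 2.37 CPM in young mice, from 21, 48 and 36 reads. The groups overlapped, and in the pair of replicates 2 the old library was the lower. T cells carry CD5 too, and their part in these reads was not tested.

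Spn (Entrez gene 20737, chromosome 7, 127123637 to 127145552, minus strand) had 44.7, 135 and 79.9 CPM in old mice, against 23.0, 39.9 and 60.0 CPM in young mice. Old replicate 1 lay below young replicate 3, so the groups overlapped, although the old library was higher in each pair, by 0.96, 1.75 and 0.41 on the log2 scale. With collection date as a block the log2 fold change was 1.05 ± 0.23 and passed (adjusted p = 0.0254). Without the block it did not. Plasma cell genes summed to 385, 1768 and 627 CPM in old mice, against 397, 533 and 794 CPM in young mice. Jchain alone had 1050 CPM of the sum in old replicate 2. Within each of these groups the order of the sums is that of the Spn levels. The order was also shared in apoptosis-sensitive cells (sums of 907, 615 and 660 CPM, Spn at 46.3, 40.7 and 44.7 CPM). It was not shared in apoptosis-resistant cells (sums of 607, 629 and 801 CPM, Spn at 62.8, 61.5 and 82.5 CPM). The part of other cell types in the Spn reads was not tested.

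Ctla4 (Entrez gene 12477, chromosome 1, 60909025 to 60915832, plus strand) encodes an inhibitory receptor for CD80 and CD86 that mouse B-1a cells carry as well as T cells. It had 10.8, 6.24 and 5.05 CPM in old mice, from 220, 122 and 94 reads, against 1.97, 0.214 and 0.857 CPM in young mice, from 24, 5 and 13 reads. All old libraries were above all young ones. The log2 fold change, 2.92 ± 0.77, was the largest of the 10 genes, but it did not pass (adjusted p = 0.0872). It passed with the date block (3.10 ± 0.49, adjusted p = 0.0027) and with DESeq2 (adjusted p = 0.00289).

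T cell markers also moved with age. Of 13 T cell genes tested, 3 rose in old mice and 0 fell, with a median log2 fold change of 2.31. In the fit with the date block 8 of the 13 rose. The T cell receptor subunit gene Cd3g had 9.54, 5.78 and 3.06 CPM in old mice, against 0.411, 0.300 and 0.396 CPM in young mice. Trac and Tcf7 were the others that rose. Trac had 1.08, 1.84 and 2.42 CPM in old mice, against a mean of 0.235 CPM in young mice. Tcf7 had 5.04, 6.24 and 6.93 CPM in old mice, against a mean of 1.72 CPM in young mice. From the first to the last old replicate Cd3g thus went down, as Ctla4 did, while Trac and Tcf7 went up. The summed level of the list ran from 52.3 to 97.9 CPM in old and from 41.1 to 80.8 CPM in young mice, since Lck, which is read in every library, made up most of it. Cd3e was at 0 in young replicate 1 and at 0.0428 and 0.330 CPM in the other young libraries, against 1.08 to 1.94 CPM in old mice. The part of T cells in the Ctla4 result was not tested.

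Il5ra (Entrez gene 16192, chromosome 6, 106710375 to 106749037, minus strand) encodes the IL-5 binding chain of the receptor through which IL-5 sustains B-1 cells. It had 83.6, 49.0 and 62.3 CPM in old mice, against 56.0, 58.5 and 52.1 CPM in young mice. The groups overlapped, and the log2 fold change was 0.23 ± 0.22 (adjusted p = 0.852), and 0.01 without the libraries of 24 March. Eosinophils also carry this receptor: their 7 marker genes summed to 2.15 to 14.8 CPM in old and 1.31 to 28.0 CPM in young mice, with 0 of 4 tested passing. Of 8 tested genes of IL-5 receptor signalling, 1 rose and 0 fell, with a median of 0.50, and with the date block 3 rose. The 1 without the block was Socs1, a feedback inhibitor of JAK kinases, with 11.2, 14.1 and 19.1 CPM in old mice, against 2.96, 4.75 and 5.21 CPM in young mice (log2 fold change 1.77 ± 0.40, adjusted p = 0.048).

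Ptpn22 (Entrez gene 19260, chromosome 3, 103856575 to 103912252, plus strand) encodes a tyrosine phosphatase that dampens antigen receptor signalling. It had 166, 158 and 116 CPM in old mice, against 72.0, 64.1 and 55.6 CPM in young mice. The groups did not overlap, and the lowest old library was well above the highest young one. Its log2 fold change was 1.20 ± 0.22 (adjusted p = 0.0194), and the 3 pairs gave 1.20, 1.30 and 1.06. The call was lost without old replicate 2 (adjusted p = 0.0728), young replicate 2 (0.101) or young replicate 3 (0.0632), with log2 fold changes from 1.10 to 1.34.

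Plscr1 (Entrez gene 22038, chromosome 9, 92250194 to 92272561, plus strand) encodes a phospholipid scramblase that interferons induce. It had 15.4, 16.9 and 15.8 CPM in old mice, against 2.55, 5.05 and 7.58 CPM in young mice. Old libraries were close to each other and all above the young ones. The log2 fold change was 1.66 ± 0.38 (adjusted p = 0.048). This call was near the threshold: it was lost in 10 of the 12 fits that left out 1 library, with adjusted p up to 0.167, and without the libraries of 24 March (1.38, adjusted p = 0.0892). Of 18 other interferon-stimulated genes, 1 rose and 1 fell, with a median log2 fold change of -0.15. The chemokine gene Cxcl10 had 5.73, 9.01 and 4.68 CPM in old mice, against 0, 0.0857 and 0.594 CPM in young mice (adjusted p = 0.0486). Oasl1, of the oligoadenylate synthetase family, had 8.66, 9.47 and 11.2 CPM in old mice, against 26.5, 24.0 and 16.6 CPM in young mice (log2 fold change -1.19 ± 0.27, adjusted p = 0.05 after rounding). Of 4 other scramblase genes tested (Plscr3, Plscr4, Ano6 and Xkr8), 0 passed. Plscr4 averaged 3.62 CPM in old and 0.242 CPM in young mice, a log2 fold change of 3.92 ± 1.105 (adjusted p = 0.112). The log2 fold changes of the other 3 were negative. In the fit with the date block 3 of the 18 interferon-stimulated genes rose and 2 fell, and 1 of the 4 scramblase genes rose and 1 fell.

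**Figure D2:**
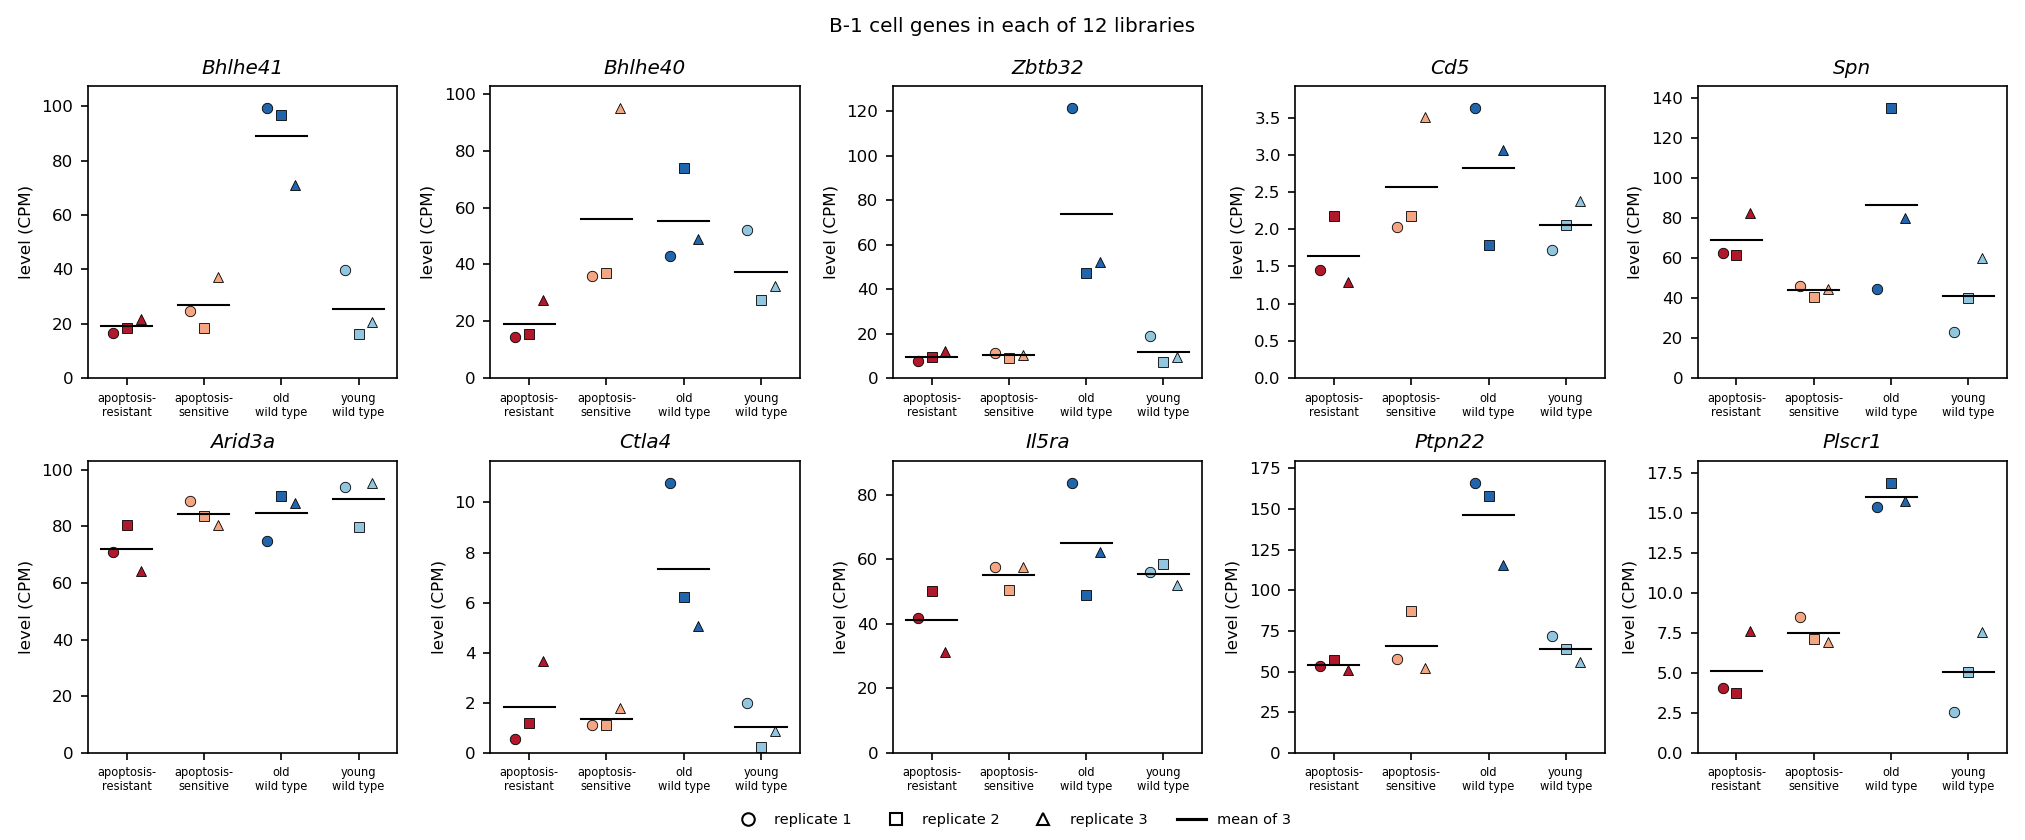
Level in CPM of each of the 10 genes (1 panel per gene, y axis from 0) in the 12 libraries, with symbols for replicates 1 to 3 and a bar at the mean of 3. Old libraries lie above all young ones for Bhlhe41, Zbtb32, Ctla4, Ptpn22 and Plscr1.

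Old and young libraries did not overlap for 5 of the 10 genes, all higher in old mice, where 9.16% of all tested genes were separated in that direction and 6.96% in the other. With date as a block, 6 of the 10 rose (the 4 above, Ctla4 and Spn) and 0 fell, where 14.9% of all genes passed, 7.89% as higher and 7.03% as lower. DESeq2 called 5 of the 10 (the 4 above and Ctla4), where 4.99% of the genes it tested passed. At an unadjusted p under 0.05 there were 6 of the 10, where 11.6% of all genes were. Fitted on the 6 wild-type libraries alone, 0 of the 10 passed, with adjusted p from 0.129 for Ptpn22 to 0.195 for Plscr1 among the 4 above, and 1 gene passed among all genes. Without the libraries of 24 March, Bhlhe41, Zbtb32 and Ptpn22 still rose, by log2 fold changes of 2.19 (adjusted p = 0.0152), 2.58 (adjusted p = 0.00276) and 1.20 (adjusted p = 0.0436).

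**Figure D3:**
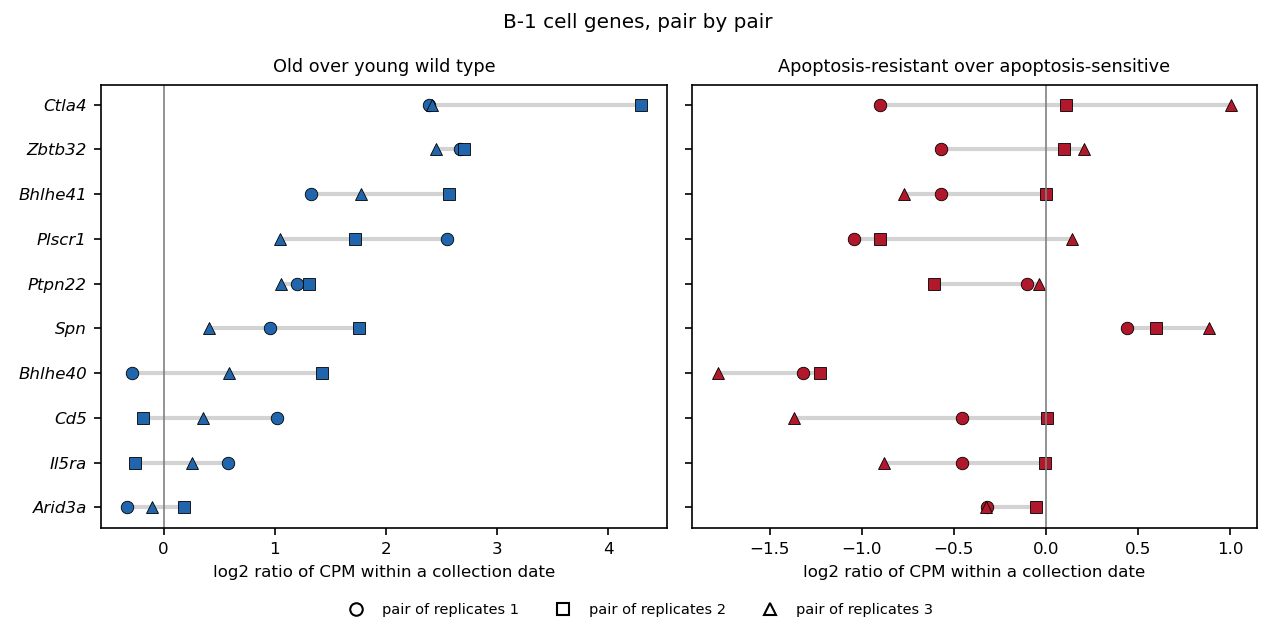
Log2 ratio of CPM within each collection date (x axis) for the 10 genes, old over young wild type on the left and apoptosis-resistant over apoptosis-sensitive on the right, with 1 symbol per pair. The 3 age pairs of Zbtb32 lie between 2.45 and 2.70, while those of Bhlhe40 lie between -0.28 and 1.43.

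Genes set beside the 10 by their known roles were tested in the same fit. Of 8 tested genes among 10 other genes used to describe B-1 cells, 1 rose and 0 fell, with a median log2 fold change of 0.72, and with the date block 2 rose. The 1 without the block was Ahr, the aryl hydrocarbon receptor, with 22.2, 33.8 and 22.7 CPM in old mice, against 8.13, 6.00 and 7.78 CPM in young mice (1.85 ± 0.29, adjusted p = 0.00899). Of the fetal-type B lymphopoiesis list, Lin28b was at 0 reads in all 12 libraries. Igf2bp3, an RNA-binding protein downstream of LIN28B, fell to 4.01, 2.20 and 2.04 CPM in old mice, against 10.7, 5.65 and 7.19 CPM in young mice (-1.50 ± 0.32, adjusted p = 0.0383), and was 1 of 2 tested of 6.

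Of 5 genes that act with CTLA4 in costimulation, 1 rose and 0 fell. It was Cd80, whose product is a ligand of CTLA4 and CD28, with 29.4, 19.6 and 9.14 CPM in old mice, against 2.96, 2.48 and 2.57 CPM in young mice (2.86 ± 0.40, adjusted p = 0.00563). Of 11 inhibitors of B cell receptor signalling, 0 passed, with a median of -0.08. The date block gave 2 of the 11 as higher and 1 as lower. All 9 follicular B-2 genes had negative log2 fold changes, with a median of -0.47, and 1 passed as lower. It was Cd55, the complement decay-accelerating factor, with 523, 417 and 467 CPM in old mice, against 795, 873 and 877 CPM in young mice (adjusted p = 0.0318). With the date block 6 of these 9 fell.

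Genes listed as markers of further cell types also moved with age. Stromal genes summed to 17.9 to 146 CPM in old and 2.5 to 12.9 CPM in young mice, and 1 of 5 tested rose (Cxcl12). Macrophage genes summed to 53.3 to 242 CPM in old and 26.6 to 150 CPM in young mice, and 1 of 9 tested rose (Adgre1). NK cell genes summed to 3.84 to 5.64 CPM in old and 0.51 to 1.12 CPM in young mice, and 2 of 3 tested rose (Ncr1 and Klrk1). Of 5 genes listed for plasmacytoid dendritic cells 1 rose (Ccr9), while 0 of 7 plasma cell, 0 of 8 granulocyte and 0 of 5 erythroid genes passed. Spib and Tcf4, also on the list for plasmacytoid dendritic cells, had 781 to 1478 and 170 to 330 CPM over the 12 libraries. Siglech, of the same list, had a log2 fold change of -0.04 ± 0.81 with age (adjusted p = 0.962). With the date block 5 of 5 stromal, 6 of 9 macrophage and 3 of 3 NK cell genes rose, and of the 5 plasmacytoid dendritic cell genes 2 rose and 1 fell. The part of these cells in the results for the 10 genes was not tested.

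Deletion of Bax in Bak-deficient cells, which removes the second effector, left 0 of the 10 genes past the threshold, where 0.0441% of all genes passed. With the date block 0 of the 10 passed, where 3.41% of all genes did. At an unadjusted p under 0.05 there was 1 of the 10, Bhlhe40, where 4.90% of all genes were. DESeq2 called 1 of the 10, where 0.789% of the genes it tested passed, and this was again Bhlhe40. Bhlhe40 had 14.4, 15.7 and 27.5 CPM in apoptosis-resistant cells, against 35.9, 36.9 and 94.9 CPM in apoptosis-sensitive cells. All apoptosis-resistant libraries were below all apoptosis-sensitive ones, and apoptosis-sensitive replicate 3 was far above its group. The log2 fold change was -1.54 ± 0.42 (adjusted p = 0.393 with edgeR and 0.0468 with DESeq2), and the 3 pairs gave -1.32, -1.23 and -1.78.

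Bhlhe41 had 16.7, 18.6 and 21.7 CPM in apoptosis-resistant cells, against 24.9, 18.6 and 37.2 CPM in apoptosis-sensitive cells. The groups overlapped, with a log2 fold change of -0.50 ± 0.33 (adjusted p = 1). The ratio of Bhlhe41 to Bhlhe40 reads per kilobase was 0.815, 0.827 and 0.554 in apoptosis-resistant cells, against 0.485, 0.352 and 0.274 in apoptosis-sensitive cells, without overlap. On the log2 scale it averaged -0.47 ± 0.33 in apoptosis-resistant and -1.47 ± 0.41 in apoptosis-sensitive cells (SD, n = 3 each, two-sided exact permutation p = 0.10, the smallest possible).

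Spn was the 1 gene of the 10 whose apoptosis-resistant libraries all lay above the apoptosis-sensitive ones, where 6.32% of all genes did. It had 62.8, 61.5 and 82.5 CPM in apoptosis-resistant cells, against 46.3, 40.7 and 44.7 CPM in apoptosis-sensitive cells, a log2 fold change of 0.65 ± 0.38 (adjusted p = 1). The libraries of 3 genes lay all below, where 8.31% of all genes did: Bhlhe40, Il5ra and Arid3a. Il5ra had 41.9, 50.2 and 31.3 CPM in apoptosis-resistant cells, against 57.7, 50.5 and 57.7 CPM in apoptosis-sensitive cells (-0.43 ± 0.22, adjusted p = 1). Its groups were separated by a narrow margin between the replicates 2. Arid3a had 71.0, 80.4 and 64.2 CPM in apoptosis-resistant cells, against 88.9, 83.6 and 80.5 CPM in apoptosis-sensitive cells (-0.23 ± 0.15, adjusted p = 1), with a similarly narrow margin.

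The other 5 genes overlapped between the mutant groups. Zbtb32 had 7.52, 9.58 and 12.0 CPM in apoptosis-resistant cells, against 11.2, 8.94 and 10.4 CPM in apoptosis-sensitive cells (log2 fold change -0.07 ± 0.41). Ptpn22 averaged 53.9 ± 3.10 CPM in apoptosis-resistant and 65.6 ± 18.8 CPM in apoptosis-sensitive cells (SD, n = 3 each). Plscr1 averaged 5.16 ± 2.16 CPM in apoptosis-resistant and 7.52 ± 0.870 CPM in apoptosis-sensitive cells. For these 3 genes every mutant library lay below every old one. Cd5 averaged 1.64 ± 0.476 CPM in apoptosis-resistant and 2.57 ± 0.814 CPM in apoptosis-sensitive cells. Ctla4 had 0.552, 1.21 and 3.68 CPM in apoptosis-resistant cells, against 1.13, 1.12 and 1.78 CPM in apoptosis-sensitive cells, and apoptosis-resistant replicate 3 alone set the direction: without it the log2 fold change was -0.59, against 0.45 ± 0.73 with it.

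In this comparison 0 genes of the lists named above passed. With the date block 1 CTLA4 partner, 1 inhibitor of B cell receptor signalling, 1 T cell gene and 1 macrophage gene were higher in apoptosis-resistant cells. With it 1 inhibitor of B cell receptor signalling, 1 follicular gene and 1 plasmacytoid dendritic cell gene were lower. Granulocyte genes summed to 68.9, 29.3 and 67.2 CPM in apoptosis-resistant cells, against 738, 77.7 and 139 CPM in apoptosis-sensitive cells. All apoptosis-resistant sums lay below all apoptosis-sensitive ones, as the Bhlhe40 levels did. The highest Bhlhe40 level was in apoptosis-sensitive replicate 3 and the highest granulocyte sum in apoptosis-sensitive replicate 1. The part of granulocytes in the Bhlhe40 result was not tested. T cell genes summed to 50.8 to 66.1 CPM in apoptosis-resistant and 45.7 to 51.6 CPM in apoptosis-sensitive cells.

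**Figure D4:**
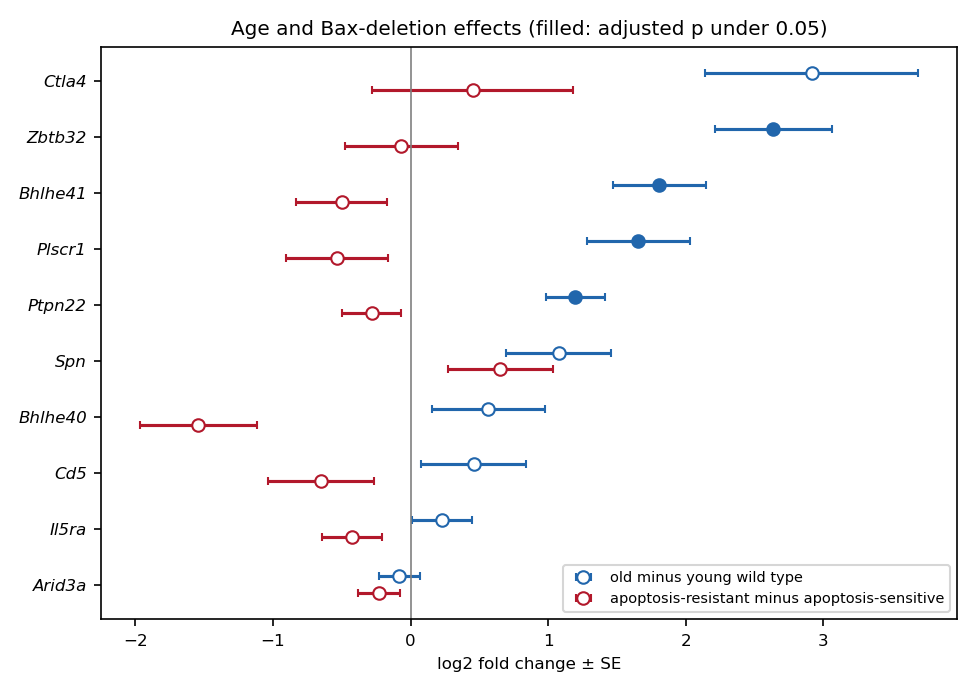
Log2 fold change with its SE (x axis) of the 10 genes for old minus young wild type and for apoptosis-resistant minus apoptosis-sensitive cells, filled where the adjusted p was under 0.05. The age effects of Zbtb32, Bhlhe41, Plscr1 and Ptpn22 are filled, from 1.20 to 2.64, and no genotype effect is.

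The age and genotype effects come from separate libraries, and their difference (age effect minus genotype effect) was tested in the same fit. It was positive for all 10 genes, with a median of 1.80 on the log2 scale, but 0 of the 10 passed, where 0.250% of all genes did, 0.177% as higher. At an unadjusted p under 0.05 there were 6 of the 10, where 6.88% of all genes were. The difference was 2.31 ± 0.47 for Bhlhe41 (adjusted p = 0.0948), 1.48 ± 0.30 for Ptpn22 (0.0948), 2.70 ± 0.59 for Zbtb32 (0.122), 2.19 ± 0.53 for Plscr1 (0.166) and 2.11 ± 0.59 for Bhlhe40 (0.246). With date as a block 5 of the 10 passed (Bhlhe41, Zbtb32, Ctla4, Ptpn22 and Plscr1), where 7.03% of all genes did, 3.51% as higher. With DESeq2 5 passed too, with Bhlhe40 in place of Ctla4, where 1.61% of the genes it tested did. Without the libraries of 24 March 2 passed, Bhlhe41 and Zbtb32.

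Apoptosis-sensitive cells, which lack Bak alone, and young wild-type cells shared no collection date, so date and genotype cannot be told apart. In edgeR 0 of the 10 genes passed, where 0% of all genes did, and 0 had an unadjusted p under 0.05, where 2.73% of all genes did. DESeq2 called 0 of the 10, where 0.109% of the genes it tested passed. The log2 fold changes ran from -0.21 for Zbtb32 to 0.58 for Bhlhe40, and the groups overlapped for all 10, where 4.57% of all genes were separated as higher and 4.25% as lower. For Bhlhe41, Zbtb32, Ptpn22, Plscr1 and Ctla4, every old library was above every library of the 3 young groups, wild type or mutant. For these 5 genes the 3 young groups overlapped one another.

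Genes most like each of the 10 were sought by Pearson's r of log2 CPM over the 12 libraries among 9450 genes, as a description, since libraries share group and date. Zbtb32 and Bhlhe41 had the same 2 nearest genes, the inhibitory receptor genes Cd300lf (r = 0.984 with Zbtb32 and 0.955 with Bhlhe41) and Lilrb4a (0.981 and 0.957). With group means removed, r for Cd300lf was 0.95 with Zbtb32 and 0.742 with Bhlhe41. Ptpn22 was most like the Fc receptor-like gene Fcrl5 (r = 0.95, and 0.542 with group means removed) and Ppfibp2 (0.939). Plscr1 was most like Adgrl2 (0.962) and Stx11 (0.934). Spn was most like Tmem176b (0.968) and Anxa2 (0.952), and kept r of 0.951 and 0.913 with group means removed. Bhlhe40 was most like Myzap (0.941) and Coro1b (0.878), Il5ra most like Pus7l (0.907) and Abcg3 (0.903), and Arid3a most like Utp4 (0.91) and Fn3krp (0.866). Cd5 and Ctla4, with means under 5 CPM over the 12 libraries, were left out.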

How the data were processed

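Mouse RNA was sequenced from 12 libraries, 4 groups of 3, described as biological replicates in the design. The authors deposited whole-number read counts per gene. The tools named in the submitters' processing notes are featureCounts and Subread, and the build is mm10. Versions and the strand setting are not given in the sources used here. Groups came from the sample labels. RefSeq symbols matched 25275 of the genes, and 0 sample columns went unused. Exon lengths are unions over the GENCODE exons of GRCm38.

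Genes were kept by filterByExpr (minimum count 10) and fitted over all 12 libraries by group with edgeR 4.0.16 (TMM, robust quasi-likelihood, 8 residual degrees of freedom, R 4.3.3). P-values were adjusted by Benjamini-Hochberg, threshold 0.05. Alternatives were other scalings, no filter, DESeq2 1.42.0, the 6 libraries compared, the collection date as a block (4 residual degrees of freedom), and leaving out libraries. The script was tested on simulated data. Same-numbered libraries share a date in the labels, and their deviations from the group means correlated in every pair (0.512 to 0.745 in wild type, 0.284 to 0.487 in mutants). Between libraries of different dates the correlation ran from -0.618 to 0.373 in wild type and from -0.383 to 0.211 in mutants. The label of the 24 March libraries gives the year 2006, the others 2016. Replicates differed by 5.6 to 249 times counting noise (chi-square per degree of freedom), so none was counted as a repeat.

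The 10 genes and all gene lists were chosen with earlier results of these data known. The genes named from a list as having risen or fallen are those past the threshold, at most 3. Cd79a, Ms4a1, Pax5, Siglecg, Cd3e, Lck and Lin28b did not pass and were named outside this rule, as description. So were Jchain, Spib, Tcf4, Siglech, Plscr3, Plscr4, Ano6 and Xkr8, which did not pass either. Genes most like a member needed a mean of 5 CPM and a log2 CPM prior count of 2.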

Additional observations from a re-analysis of the deposited data

How the results depend on the processing

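Of the 10 genes, 4 rose with age under both other scalings and without a filter, 5 with DESeq2, 6 with the replicate block, 3 without the 2 libraries of 24 March and 0 with only the 6 libraries compared. With 1 library left out the count ran from 0 to 4, with 1 without old replicate 2, 0 without young replicate 2 and 2 without young replicate 3. Over all genes it was 273, against 86 and 75 in the first pair of those fits, 2028 with the block and 746 with DESeq2. For resistant against sensitive, DESeq2 called 1 gene lower, and the other settings 0. For the age effect minus the genotype effect, where 0 passed, 1 was higher without a filter, 5 with DESeq2, 5 with the replicate block and 2 without the libraries of 24 March, with 0 to 2 when 1 library was left out. Among the 10 genes, the replicate block changed no call other than those of Ctla4 and Spn with age and of 5 genes in that difference. In the lists it moved more calls, given beside each.

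Some small log2 fold changes turned direction, and the cause was not tested. Without the libraries of 24 March, Arid3a with age became 0.036, and for sensitive against young, Zbtb32 became 0.31, Spn -0.17 and Il5ra 0.017 (0.008 without a filter). With 1 library left out, resistant against sensitive ran from -0.25 to 0.092 for Zbtb32 and from -0.59 to 0.88 for Ctla4. Sensitive against young ran from -0.21 to 0.57 for Bhlhe41, -0.024 to 0.93 for Bhlhe40, -0.50 to 0.32 for Zbtb32, -0.16 to 0.48 for Spn, -0.079 to 1.42 for Ctla4, -0.04 to 0.042 for Il5ra and -0.23 to 0.19 for Ptpn22. Age minus genotype ran from -0.042 to 0.78 for Spn. Where a group was left with 2 libraries, their spread was pooled with the other groups. Cd5 and Ctla4 had the fewest reads, with as few as 5 reads of Ctla4 in a library.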

Other observations

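Across the 12 libraries the 10 genes did not vary as 1 block. The log2 CPM of Bhlhe41 and Zbtb32 had r = 0.946, and 0.696 with group means removed, while that of Bhlhe41 and Bhlhe40 had r = 0.681 and 0.782. Without the libraries of 24 March, r with group means removed was 0.507 for Bhlhe41 and Zbtb32 and 0.891 for Bhlhe41 and Bhlhe40. Zbtb32 and Ctla4 had r = 0.888 and 0.801, and 0.876 with group means removed without those libraries. Zbtb32 and Spn had r = 0.246, and -0.702 with group means removed, but this rested on the libraries of 24 March, which had the most Zbtb32 and the least Spn of their groups. Without them r was 0.759, and 0.486 with group means removed. These are descriptions over 12 libraries that share group and date, with no test.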
